A study of Mus musculus with 4 samples.

Results

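The E2F transcription factors and their DP partners were described in RNA-seq libraries of mouse T cells. The 8 genes E2f1 to E2f8 and the 2 genes Tfdp1 and Tfdp2 were taken by gene name, and all 10 were found among the 50600 genes of each count table. The samples are primary T cells of the mouse strain C57BL/6NJ, and the labels place all 4 in a single group of biological replicates with no treatment, an unknown age and no recorded sex. The file headers add the terms Th0, activated and 48 h, where Th0 usually denotes CD4 T cells activated with no polarising cytokine, and the labels link a CD4 T cell differentiation protocol. All 4 replicates carry the same donor identifier, so the tests here speak for these libraries, whose differences may be technical. With no second group, the questions are which family members the cells expressed, in what order, and how far the replicates differed.

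E2F proteins are DNA-binding factors that control genes of DNA replication and cell division. E2F1 to E2F6 bind DNA as a pair with a DP protein (DP-1 from Tfdp1 or DP-2 from Tfdp2), whereas E2F7 and E2F8 bind without one. In resting cells pocket proteins of the retinoblastoma family hold E2F proteins at their target genes in a repressed state, and cyclin-dependent kinases release them as a stimulated T cell enters the cycle. E2F1, E2F2 and E2F3 are known as activators, E2F4 and E2F5 mainly act as repressors with pocket proteins, E2F6 works with Polycomb proteins, and E2F7 and E2F8 repress target genes late in S phase.

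Counts assigned to genes ranged from 45110199 to 127755788 per library, and replicate 3 was the deepest. The labelled cell type was checked against markers. All 9 T cell markers (Trac, Cd5, Cd4, Lck, Cd3d, Cd3e, Cd3g, Cd247 and Cd28) were above 1 TPM (a count divided by gene length and then scaled to the same total in each library), with a summed level of 5392 to 5562 TPM over the libraries. Summed levels were 20.5 to 24.4 TPM for CD8 T cell markers, 3.25 to 4.05 for myeloid, 1.99 to 3.05 for dendritic, 1.48 to 2.18 for NK and 14.1 to 16.5 for stromal markers. Lyz2, Klra8 and Hbb-bt had no count, and Cd8b1 (22.3 TPM) and Pecam1 (14.9 TPM) held most of the CD8 and stromal sums. Both passed limma's test for a level above 1 TPM, as did Cd79b (2.02 TPM), Adgre1 (2.75), Zbtb46 (2.32) and Eomes (1.93). Cd79a (1.1) and Fcgr3 (0.602) passed neither the test for a higher nor that for a lower level. Called below 1 TPM, from Pdgfra (0.00136) to Klf1 (0.578), were also Cd8a, Ms4a1, Pax5, Cd22, Csf1r, Cd14, Itgam, Flt3, Xcr1, Siglech, Ncr1, Klrb1c, Hba-a1, Col1a1 and Col1a2. The part of such cells in the members' levels was not tested. In such bulk samples a lower level cannot be told apart from fewer expressing cells.

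Several E2F family genes carry E2F-type letters near an annotated start site. These short stretches are shown because part of the members and part of the target genes described further on hold such letters. RefSeq windows on GRCm38.p6, from 250 bases before to 50 bases after an annotated start site, were present for 8 of the 10 members, in 12 windows. E2f4 and E2f5 had no window. They were searched on both strands for the E2F letters TTTCCCGC, TTTCGCGC, TTTGCCGC and TTTGGCGC and for TTTGAA, the element bound by MuvB complexes; the E2F letters do not overlap TTTGAA. Capitals mark the match, lower case the 10 flanking bases (fewer at a window's end), and each stretch reads along the gene's strand. A match from the other strand is therefore printed as its reverse complement.
E2f2, plus strand, chr4:136172303-136172323: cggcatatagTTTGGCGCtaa
E2f3, minus strand, chr13:29986057-29986084: tgaaaagccgGCGGGAAAtctgagtttc
E2f7, plus strand, chr10:110745231-110745258: ccgcgtccccGCGGGAAAcgctcccgcg
Tfdp1, plus strand, chr8:13338698-13338725: ggcgccgaagGCGCGAAAaggcgcgcag
E2f3 TTTGAA match, minus strand, chr13:29986071-29986096: gcaaatatggTTTGAAaagccggcgg
E2f8 TTTGAA match, minus strand, chr7:48881601-48881626: gcgggttaatTTCAAAtcgggggctg

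E2F letters were present in 5 of the 12 member windows, against 744 of 32851 windows of all genes (2.26%). By gene this was 4 of 8 members, against 704 of 27025 genes (2.6%). The 4 were E2f2, E2f3, E2f7 and Tfdp1, whose 2 overlapping windows hold the same match. Among the G1 to S target genes with a window, 12 of 23 had such letters. TTTGAA occurred in 3 of 12 member windows, in 17.9% of all windows and in 2 of 25 windows of the target genes. The third member match, in an E2f2 window whose start site lies 8388 bases inside the gene, is at chr4:136180741-136180766 (plus strand) and reads agcctgtgtgTTTGAAtggtgtggaa. In the upstream E2f3 window the E2F letters begin 11 bases before the start site and the TTTGAA letters 23 bases before it. The only E2f1 window has its start site 466 bases inside the GENCODE gene and the start sites of the Tfdp2 windows lie 62430 and 62973 bases inside that gene, so those windows do not cover the outermost start of the gene. These matches describe letters in the windows and are not binding measurements.

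All 10 members were expressed above 1 TPM. Each passed limma's one-sided test of log2(TPM + 0.1) against 1 TPM, with Benjamini-Hochberg adjustment over 23365 genes and n = 4 (largest adjusted p = 9.97e-09, for Tfdp2). Of all genes tested, 50.5% passed the same test, and of protein-coding genes 68.9%. The median over protein-coding genes with a count was 14.2 TPM, and 8 members were above that median while Tfdp2 and E2f7 were below it. E2f4 and Tfdp1 stood apart from the rest of the family at over 300 TPM, a middle set of E2f1, E2f2, E2f3, E2f6 and E2f8 lay between 43.3 and 53.4 TPM, and E2f5, Tfdp2 and E2f7 followed below.

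**Figure D1:**
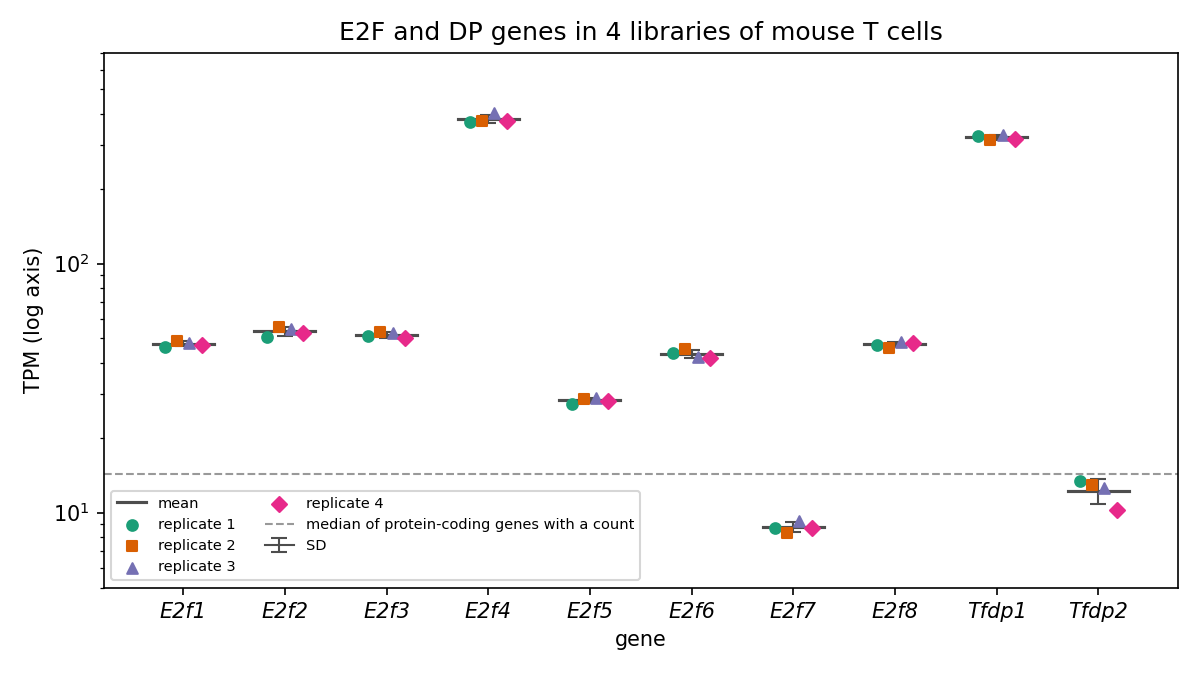
TPM of each E2F and DP gene (x axis) on a log y axis, with 1 point per library, a bar at the mean and error bars of 1 SD (n = 4); the dashed line is the median of protein-coding genes with a count, 14.2 TPM. E2f4 and Tfdp1 lie near 380 and 321 TPM, 5 genes lie close together between 43.3 and 53.4 TPM, and Tfdp2 and E2f7 lie below the line.

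The activator genes were expressed at similar levels. E2f1, whose protein drives S phase entry and can also induce cell death genes (ENSMUSG00000027490.17, minus strand, chr2:154559407-154569892, mm10), had 46.4, 48.8, 48.04 and 47.1 TPM in replicates 1 to 4, a mean of 47.6 ± 1.05 (SD, n = 4). E2f2, an activator with a known role in restraining T cell proliferation (ENSMUSG00000018983.9, plus strand, chr4:136172394-136196057), had 50.5, 55.8, 54.4 and 52.7 TPM, a mean of 53.4 ± 2.26. E2f3, which is known to make a long and a short protein from separate start sites that a gene-level count cannot separate (ENSMUSG00000016477.17, minus strand, chr13:29906575-29985668), had 51.1, 52.9, 52.5 and 50.1 TPM, a mean of 51.7 ± 1.29. E2f1 was below E2f2 and E2f3 within each of the 4 libraries, whereas E2f2 and E2f3 changed places between libraries.

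The log2 ratio of E2f1 over E2f2 was -0.16 ± 0.03 (mean ± SD, limma on the within-library ratio, adjusted p = 0.000492) and that of E2f1 over E2f3 was -0.12 ± 0.02 (adjusted p = 0.00203). The log2 ratio of E2f2 over E2f3 was 0.05 ± 0.04 and did not pass the test (adjusted p = 0.170). These small differences depend on the gene length used. With the longest annotated transcript as the length, E2f1 (43.2 TPM) lay above E2f3 (38.5 TPM) by 0.17 (adjusted p = 0.000457), while E2f1 with E2f2 no longer passed (adjusted p = 0.650).

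E2f4 was the most abundant member and dominated the E2F genes. E2f4, which binds all pocket proteins and lacks the nuclear localisation signal of the activators (ENSMUSG00000014859.9, plus strand, chr8:105297663-105305370), had 371, 373, 401 and 375 TPM, a mean of 380.2 ± 14.3 (SD, n = 4). Replicate 3, the deepest library, was the highest, and the other 3 lay within a few TPM of each other. By limma, 374 of 23364 other genes (1.6%) were called higher than E2f4 in TPM, and 97.3% of protein-coding genes with a count had a lower mean. Its partner in the same class, E2f5, a repressor that pairs mainly with the pocket protein p130 (ENSMUSG00000027552.14, plus strand, chr3:14578641-14606309), had 27.3, 28.5, 28.9 and 28.1 TPM, a mean of 28.2 ± 0.714. E2f4 exceeded E2f5 by a log2 ratio of 3.75 ± 0.04 (adjusted p = 3.2e-09), a 13.4-fold difference seen in 4 of 4 libraries.

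E2f4 made up 57.5%, 56.7%, 58.6% and 57.5% of the summed TPM of the 8 E2F genes in replicates 1 to 4. The 3 activators together made up 22.6% to 23.9%, E2f6 6.17% to 6.87%, and the atypical pair 8.2% to 8.71%. The summed level of E2f4 and E2f5 was 2.68 ± 0.0932 times that of E2f1, E2f2 and E2f3 (mean ± SD of the within-library ratio, n = 4). Without length correction the ratio was 1.49, and E2f4 then held 44.8% of the sum. The sums describe RNA of genes chosen by name and carry no test.

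E2f6, whose protein lacks a pocket protein binding region, stood close to the activators. E2f6 (ENSMUSG00000057469.7, plus strand, chr12:16810965-16826743) had 43.9, 45.3, 42.3 and 41.7 TPM, a mean of 43.3 ± 1.6 (SD, n = 4). It was below E2f1 and E2f8 in 4 of 4 libraries. The log2 ratio of E2f1 over E2f6 was 0.14 ± 0.05 (limma, adjusted p = 0.00301), and that of E2f6 over E2f8 was -0.13 ± 0.09 (adjusted p = 0.0195). The second of these calls was lost without replicate 3 (adjusted p = 0.0814) or replicate 4 (0.086). With the longest transcript as length E2f6 was at 27.5 TPM, below the 38.5 to 43.6 TPM that the activators then had. Transcript lengths came from GENCODE M21, a later release than the M13 exons that were counted, and for E2f6 (3018 against 2421 bases) and E2f3 (5097 against 4794) they exceed the summed exon length, so the alternative changes the annotation as well as the length rule.

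Of the atypical genes, E2f8 stood close to the activators and E2f7 well below them. E2f8, a DP-independent repressor (ENSMUSG00000046179.17, minus strand, chr7:48866429-48881596), had 47.01, 45.7, 48.6 and 48.04 TPM, a mean of 47.3 ± 1.26 (SD, n = 4). E2f7, its close relative (ENSMUSG00000020185.16, plus strand, chr10:110745439-110787384), had 8.69, 8.3, 9.27 and 8.7 TPM, a mean of 8.74 ± 0.398, and was the lowest member in every library. The log2 ratio of E2f7 over E2f8 was -2.42 ± 0.03 (limma, adjusted p = 2.65e-09), a 5.37-fold difference. Among protein-coding genes with a count 72.1% had a lower mean than E2f8 and 43.9% a lower mean than E2f7. E2f8 could not be told apart from E2f1 (log2 ratio of E2f1 over E2f8 0.01 ± 0.06, adjusted p = 0.787), and each was higher in at least 1 library. It was below E2f2 and E2f3 in 4 of 4 libraries. The log2 ratios of E2f2 and E2f3 over E2f8 were 0.17 ± 0.08 and 0.13 ± 0.06 (limma, adjusted p = 0.0041 and 0.00696). An opposite-strand transcript gene, Gm2788, overlaps 610 exon bases of E2f8. The counting used strand, and Gm2788 itself was at 0.091 TPM.

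Of the DP partners, Tfdp1 was expressed far above Tfdp2. Tfdp1, which encodes the common dimer partner DP-1 (ENSMUSG00000038482.11, plus strand, chr8:13338751-13378448), had 324, 314, 329 and 317 TPM, a mean of 320.9 ± 6.86 (SD, n = 4). Tfdp2, which encodes the alternative partner DP-2 (ENSMUSG00000032411.15, plus strand, chr9:96196275-96323646), had 13.4, 12.9, 12.5 and 10.2 TPM, a mean of 12.3 ± 1.39, with replicate 4 the lowest. Tfdp1 exceeded Tfdp2 by a log2 ratio of 4.71 ± 0.16 (adjusted p = 5.68e-09), a 26.1-fold difference that held in 4 of 4 libraries. Tfdp1 thus held 96.04% to 96.9% of the summed DP level, and 87.3% without length correction. A near copy of part of Tfdp1, Gm7390, shares 99.1% identity over 755 bases of its longest transcript and stood at 4.82 TPM; whether reads were lost or moved between them was not tested.

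E2f4 lay above Tfdp1 by 0.24 ± 0.04 in log2 TPM (adjusted p = 0.000167), in 4 of 4 libraries. Without length correction that order turned, with Tfdp1 at 343 and E2f4 at 272 CPM (counts scaled by library size alone). The 6 E2F genes whose proteins need a DP partner summed to 1.75, 1.85, 1.84 and 1.82 times the summed DP level in replicates 1 to 4. With the longest transcript as length the mean ratio was 1.54, and without length correction it was 1.29.

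Over all 45 pairs of members, 43 differed by limma's two-sided test on the within-library log2 ratio, adjusted over all genes tested against the same reference gene (n = 4). That is 95.6% of pairs, against 98.2% when every gene was set against each member, so pairs of members differed no more often than any gene differed from a member. The 43 pairs that passed kept their direction in 4 of 4 libraries. The 2 pairs not called were E2f2 with E2f3 and E2f1 with E2f8. From high to low the order was E2f4, Tfdp1, E2f2, E2f3, E2f1, E2f8, E2f6, E2f5, Tfdp2 and E2f7, and the largest gap between neighbours was that from Tfdp1 to E2f2, with a log2 ratio of E2f2 over Tfdp1 of -2.59 ± 0.08 (limma, adjusted p = 1.39e-08). For the lowest neighbours the log2 ratio of E2f7 over Tfdp2 was -0.48 ± 0.19 (adjusted p = 0.00115). For a single pair, exact sign flipping of 4 values has a smallest possible two-sided p of 0.125.

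**Figure D2:**
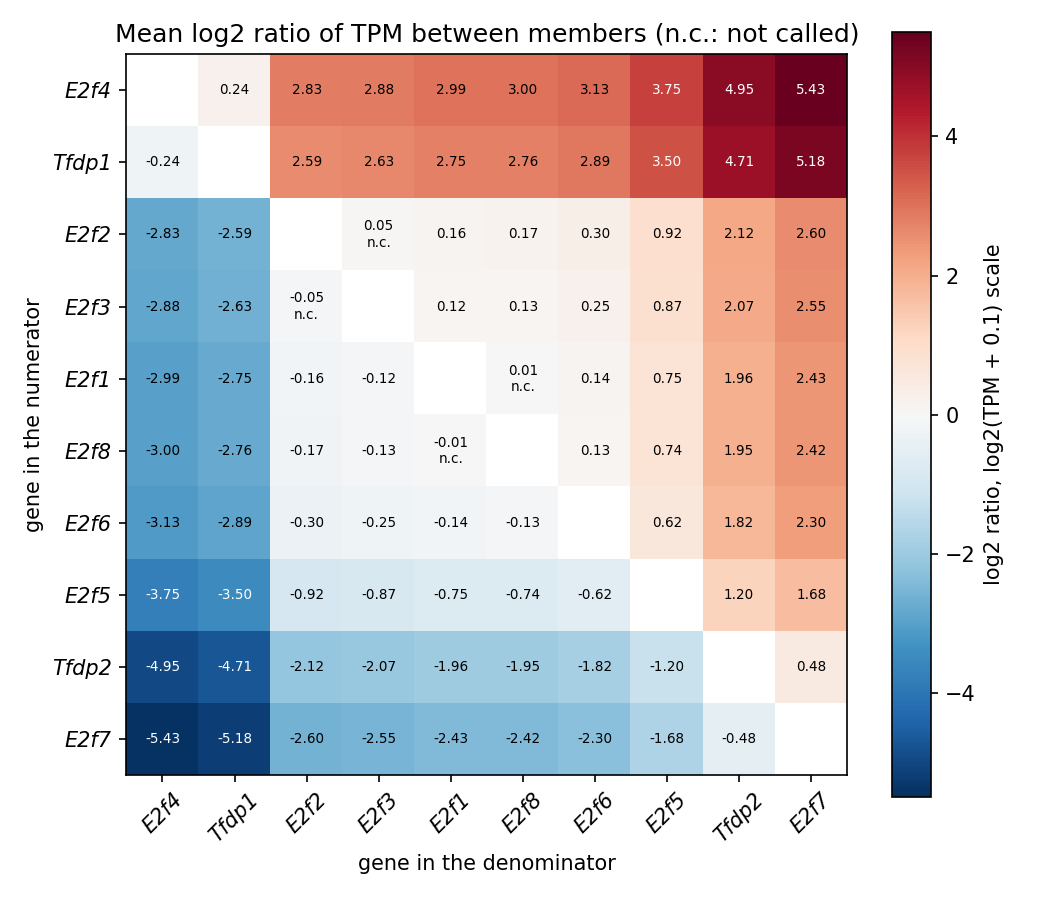
Mean log2 ratio of TPM for every pair of members, the gene of the row over the gene of the column, ordered from high to low; n.c. marks the 2 pairs that did not pass the test. E2f4 and Tfdp1 form a red block against the other 8 genes, and the ratios among E2f2, E2f3, E2f1, E2f8 and E2f6 stay between 0.01 and 0.30 in size.

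The order of the members depended on gene length: the direction of 9 pairs turned under at least 1 of the 2 other length settings, 8 of them among the 43 called pairs. Leaving out a library turned no called pair, and it turned the uncalled pair E2f1 and E2f8 (log2 ratio -0.02 without replicate 2). Summed exon length ran from 1782 bases for E2f5 to 14029 for Tfdp2. In CPM, which does not correct for length, Tfdp2 stood at 50.1 ± 5.75 and E2f7 at 22.9 ± 0.888, above E2f1 (43.7 ± 0.891) and E2f5 (14.6 ± 0.281) respectively. With the longest transcript as length, E2f8 rose to 55.3 TPM and the log2 ratios of E2f1, E2f2 and E2f3 over it were -0.36, -0.34 and -0.52 (limma, adjusted p = 2.02e-05, 8.37e-05 and 3.13e-06). E2f4 and Tfdp1 remained the top 2 and E2f7 the lowest in both length-corrected orders.

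**Figure D3:**
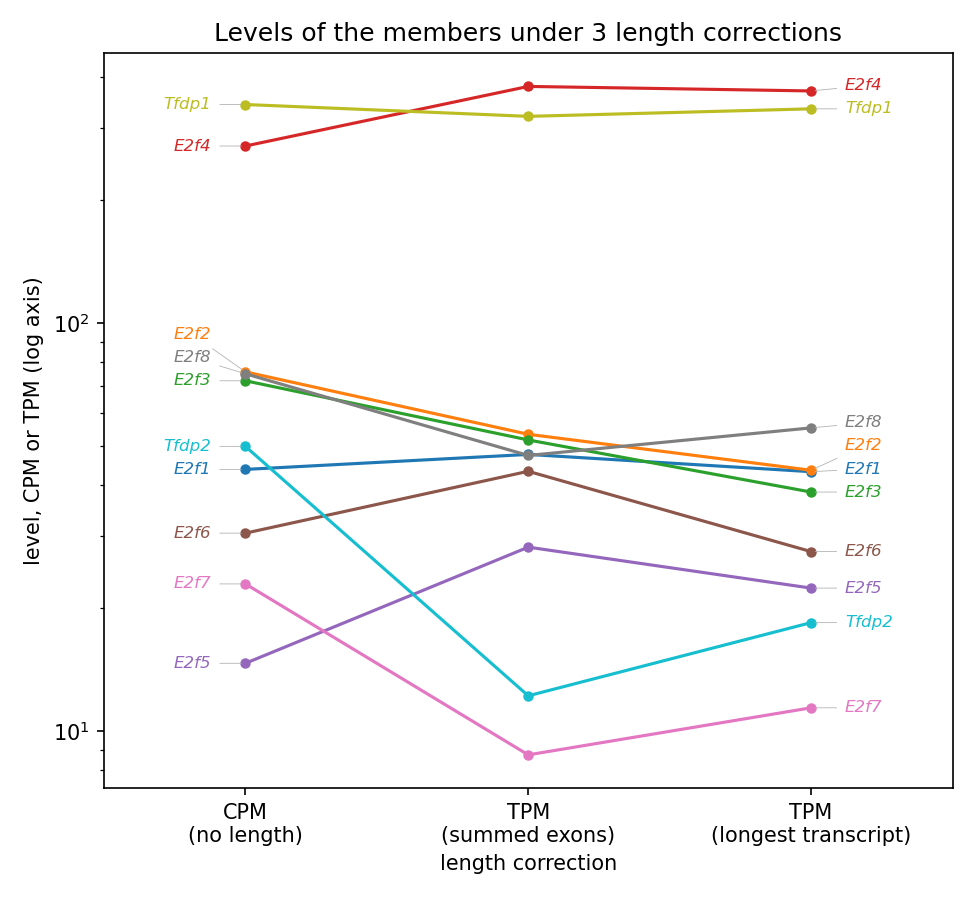
Level of each member (log y axis) in CPM, in TPM from summed exon length and in TPM from the longest annotated transcript (x axis), each point the back-transformed mean log2 level over 4 libraries. E2f4 and Tfdp1 stay on top throughout, while Tfdp2 and E2f7 fall once length is corrected and the 5 middle genes change places.

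No member was called as varying between replicates beyond genes of like abundance. The coefficient of variation of TPM was 2.14% for Tfdp1, 2.21% for E2f1 and at most 4.55% (E2f7) for the members other than Tfdp2, which reached 11.4%. Counting error alone gives 3.86% for E2f5 in the shallowest library, so its 2.53% is within sampling noise. By edgeR's goodness-of-fit test against the dispersion trend, 0 of 10 members varied more than genes of like abundance (adjusted over 13279 genes), against 0.422% of all genes. At an unadjusted p below 0.05 in the same edgeR test across all genes there was 1 member, Tfdp2 (adjusted p = 0.368), against 5.8% of all genes. DESeq2's dispersion estimate for Tfdp2, which is not a test, was 4.44 times its trend, a ratio larger than that of 98.5% of genes. For the other members that share ran from 6.69% (E2f5) to 49.1% (E2f2) of genes.

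The deviation of Tfdp2 from its own mean log2 TPM was -0.25 in replicate 4 and 0.13, 0.08 and 0.04 in replicates 1, 2 and 3. In the remaining 9 genes no library departed from the gene mean by more than 0.0848 on this scale. Genes with 10000 or more exon bases and more than 1 TPM, 851 in number, had a median deviation of 0.0033 in replicate 4, and 0.47% of them were as low there as Tfdp2. Tfdp2 is among these genes, and the library and direction were taken from its own value, so the share is no test. E2f4, E2f7, E2f5, E2f8 and Tfdp1 were highest in replicate 3. Of the 2200 genes at 100 TPM or more, 6.64% were as high in replicate 3 as E2f4. E2f4 is among these genes and the library was taken from its value, so this share is no test either. The part of sequencing depth in the E2f4 value was not tested.

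**Figure D4:**
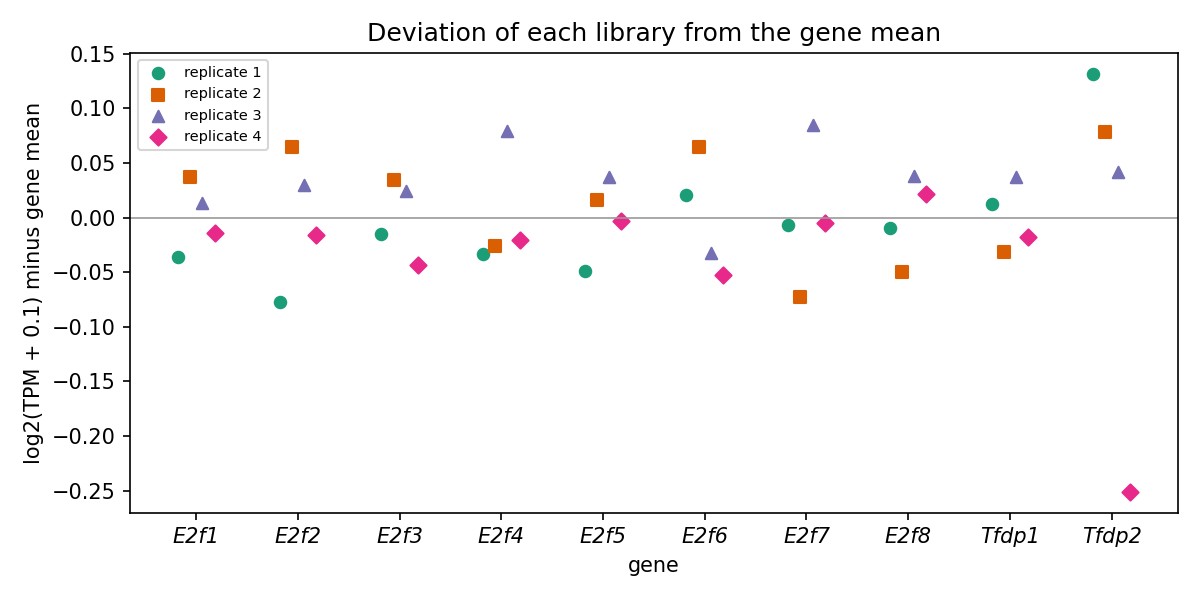
Deviation of each library from the gene's mean log2(TPM + 0.1) (y axis) for the 10 members (x axis), 1 point per replicate. All points lie within 0.0848 of 0 except those of Tfdp2 in replicate 4, at -0.25, and in replicate 1, at 0.13.

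The genes of the pocket proteins, the MuvB core, B-Myb and FoxM1 were also expressed. For the counts of these lists and those that follow, 68.9% of protein-coding genes and 50.5% of all genes were called above 1 TPM. All 3 pocket protein genes were above 1 TPM. Rbl1, which encodes p107, stood at 42.3 ± 1.35 TPM (SD, n = 4), Rb1 at 36 ± 0.985 and Rbl2, which encodes p130, at 29.2 ± 1.59. Their sum was 0.187 to 0.196 times that of E2f1 to E2f5. All 7 genes of the MuvB core, B-Myb and FoxM1 were above 1 TPM with a median of 37.5, from Rbbp4, a histone-binding subunit (167 ± 2.1), through Foxm1 (72.6 ± 2.68), Mybl2, the gene of B-Myb (66.6 ± 2.16), and Lin37 (37.5 ± 1.6) to Lin52 (16.6 ± 0.313) and Lin9 (15.4 ± 0.852).

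Of 9 G1 and S phase cyclin and kinase genes, 8 were above 1 TPM. Cdk4, the kinase gene paired with D cyclins, led at 438 ± 4.78 TPM, followed by the S phase cyclin gene Ccna2 (274 ± 12.1), Ccnd2 (224 ± 7.9) and Ccne1 (144 ± 6.51), with Cdk6 at 35.3 ± 3.15. Ccnd1 was the member below 1 TPM, at 0.113 ± 0.0486 (adjusted p = 9.49e-05), where 39.6% of all genes were called below. Of 7 CDK inhibitor genes 4 were above: Cdkn1a, the gene of p21, at 604 ± 29.1, Cdkn2d at 81.7 ± 4.13, Cdkn2c at 23.4 ± 2.79 and Cdkn1b at 23.2 ± 1.8. Cdkn2b lay below at 0.282 ± 0.237, while Cdkn1c (0.722 ± 0.149) and Cdkn2a (1.09 ± 0.31) passed neither test. All 5 ubiquitin ligase factor genes were above, from the anaphase activator gene Cdc20 (505 ± 12.1) and Ccnf, whose product cyclin F targets E2F proteins for degradation (153 ± 3.23), to Fzr1 (131 ± 4.54), Fbxo5 (98.2 ± 6.54) and Skp2 (13.9 ± 0.381).

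Known E2F target genes of the G1 to S transition were all expressed. All 27 were above 1 TPM with a median of 140 TPM, against a median of 1.8 over all genes with a count and 14.2 over protein-coding ones. The highest were the helicase subunit gene Mcm3 at 601 ± 6.89 TPM (SD, n = 4), the ribonucleotide reductase gene Rrm2 (560 ± 11.1), the sliding clamp gene Pcna (552 ± 28) and Mcm5 (550 ± 9.99). The lowest were Rbl1 (42.3 ± 1.35) and the chromatin assembly gene Chaf1b (32.7 ± 1.1). Of the cell death genes linked to E2F1 that are reported here, Bbc3 stood at 99.1 ± 5.86 TPM, Apaf1 at 43.1 ± 1, Bcl2l11 at 42.9 ± 2 and Pmaip1 at 18.1 ± 2.01, each above 1 TPM. Trp73, the gene of p73, lay below 1 TPM at 0.0484 ± 0.0842 (adjusted p = 0.000121).

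The partner genes of E2F6 were expressed, and its known germline targets were not called above 1 TPM. All 11 genes of its Polycomb complex were above 1 TPM, against 68.9% of protein-coding genes, with a median of 54.3. They were led by the deacetylase gene Hdac1 (150 ± 3.62), Wdr5 (145 ± 2), Max (118 ± 4.01) and Hdac2 (96.2 ± 2.33), with Mga (29.5 ± 1.33) and Rybp (9.2 ± 0.538) lowest. Of 8 germline genes that E2F6 complexes are known to silence, 6 had a count and were tested. Of these 6, 0 were above 1 TPM by limma at an adjusted p below 0.05. The shares were 50.5% of all genes tested and 68.9% of protein-coding ones. At an unadjusted p below 0.05 the same limma test also gave 0 above. Called below 1 TPM were 5 of the 6, where 39.6% of all genes tested were called below. The 5 were Ddx4 (0.203 ± 0.0977), Slc25a31 (0.099 ± 0.198), Tuba3a (0.0135 ± 0.027), Taf7l (0.0132 ± 0.0154) and Tuba3b (0.00766 ± 0.0153). The Slc25a31, Tuba3a and Tuba3b counts all came from replicate 3, the deepest library. Smc1b and Mael had no count in any library. Stag3, a meiotic cohesin gene, passed neither test at 1.15 ± 0.341 TPM (adjusted p = 0.552 for above). The part of E2F6 in the levels of these germline genes was not tested.

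**Figure D5:**
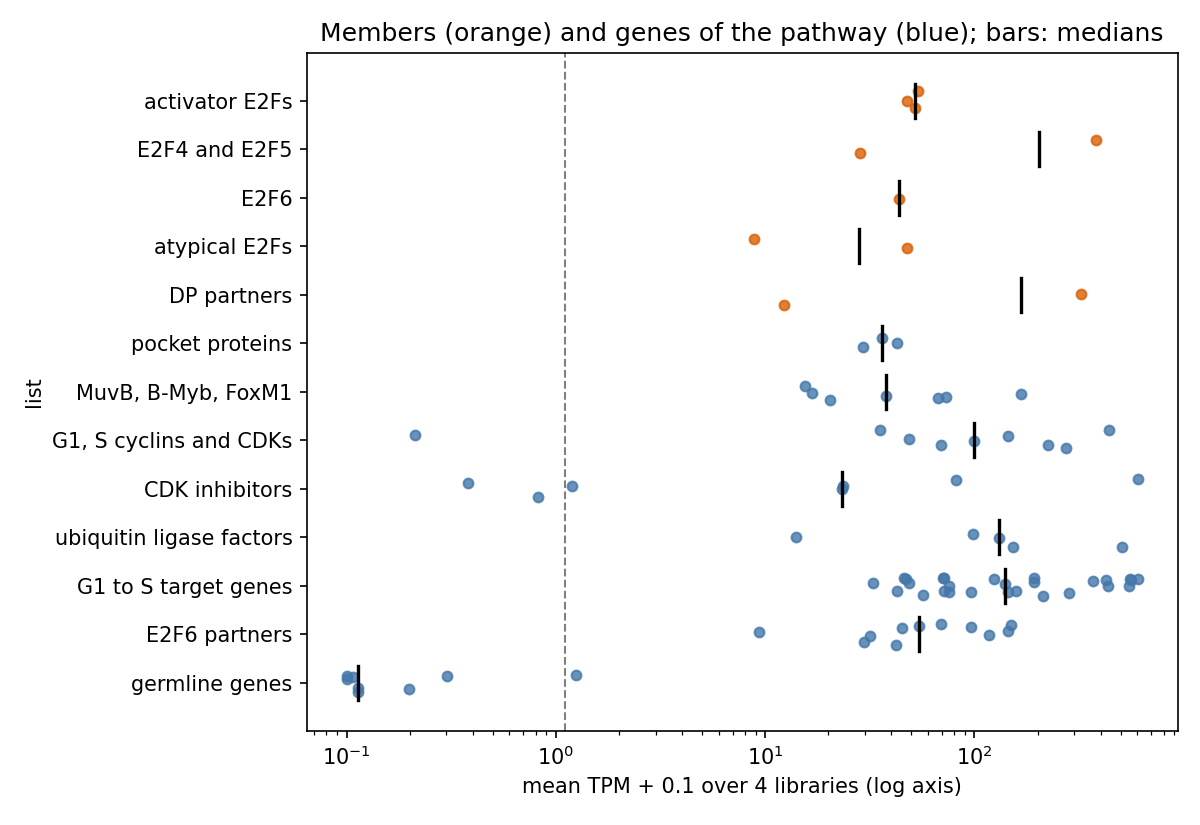
Mean TPM + 0.1 over 4 libraries (log x axis) for the members (orange) and for the pathway genes (blue), 1 point per gene, grouped by list on the y axis, with black bars at the list medians and a dashed line at the threshold of 1 TPM. The G1 to S target genes have a median of 140 TPM, and the germline genes lie at or left of the threshold except Stag3 at 1.15 TPM.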

How the data were processed

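RNA of 4 T cell libraries was sequenced. Per the file headers, the authors counted read pairs per gene with featureCounts 1.4.6-p4 on STAR alignments, over exons of GENCODE M13, with both ends mapped and strand option 2. The deposited values are raw counts, and the headers name no option for counting reads of several places or genes. Per the labels, reads were placed on mm10. Which STAR version ran was not given in the sources used here. Summed exon lengths stand in the same deposited files. The assay title is total RNA-seq, but the labels link a protocol named for polyA+ RNA. Every pair of libraries differed beyond counting noise (chi-square per degree of freedom 9.02 to 28.7).

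Symbols (99.6% of 50600 genes matched) and transcripts came from GENCODE M21. TPM was computed from counts and exon lengths. Levels (against 1 TPM) and within-library log2 ratios were tested with limma 3.58.1 on log2(TPM + 0.1), empirical Bayes with an abundance trend, over 23365 genes with a count; the pseudocount pulls low values toward it. Spread was tested with edgeR 4.0.16 (TMM, filterByExpr, 13279 genes). All results named as called have a Benjamini-Hochberg adjusted p below 0.05. Alternatives included DESeq2 1.42.0 size factors; tests were tried on simulated data. R 4.3.3, python 3.11.15 and blastn 2.17.0+ were used. Near copies were alignments of 200 or more bases. Depth limits precision: 3 counts equal 0.0235 to 0.0665 CPM.

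The members were taken by name. They, the gene lists, tests and the naming rule (all members and markers; per list the 4 highest, the 2 lowest and any gene below 1 TPM) were chosen with earlier results of these data known. Cdkn2a falls outside that rule and was named after its value was seen, to complete a count. Parts of the lists of cell death genes and markers are not reported here.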

Additional observations from a re-analysis of the deposited data

Results flagged for a closer look

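E2f4 in replicate 3 was at 401 TPM, separated from the other 3 libraries (371 to 375 TPM) by 0.893 of the whole range, a gap past Dixon's 95% critical value for 4 samples. The summed level of E2f4 and E2f5 stood apart in the same library for the same gene, at 430 TPM. Replicate 3 was also apart in depth, with 127755788 assigned counts against 45110199 to 56904311 in the others. Chance gives such a gap in about 1 of 20 groups, and 27 sets of 4 values were checked, of which 3 stood apart. The sets overlap, since many are sums, shares or ratios of the same genes, so this tally is no test.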

How the results depend on the processing

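All 10 members passed the test for a higher level under each of the 12 alternatives tried. Of all genes, 10854 to 11859 passed under these alternatives, against 11797 of 23365 (50.5%) in the reported fit. With filterByExpr 11759 of the 13279 genes kept passed, so most genes passed there as the members did. The threshold was 1 CPM in the fit without length correction, 2 TPM in another fit and 1 TPM in the rest. The direction of 9 pair ratios turned with another length correction, E2f1 over E2f8 and E2f3 over E2f8 under both, and E2f1 over E2f8, which was not called, also turned without replicate 2 (-0.02). Without length correction (CPM) the log2 ratios were -0.78 for E2f1 over E2f8, -0.19 for E2f1 over Tfdp2, -0.057 for E2f3 over E2f8, -0.34 for E2f4 over Tfdp1, -0.64 for E2f5 over E2f7, -1.76 for E2f5 over Tfdp2 and -0.70 for E2f6 over Tfdp2. With the longest transcript they were 0.17 for E2f1 over E2f3, -0.36 for E2f1 over E2f8, -0.34 for E2f2 over E2f8 and -0.52 for E2f3 over E2f8. In CPM the ratio of E2f3 over E2f8 did not pass limma's test (adjusted p = 0.107). That of E2f2 over E2f8 kept its direction in CPM, at 0.015, but no longer passed (adjusted p = 0.702). The number of pairs that passed was 42 to 44 of 45 over the 9 alternatives run for pairs. The count of genes below 1 TPM fell from 9262 to 665 with filterByExpr, since that filter removes low genes. The count of genes with spread beyond the trend, 56 with all libraries, was 33 to 40 with a replicate left out (33 without replicate 1, 37 without replicate 3 and 37 without replicate 4), and fewer samples were then tested. No member passed that test in any of these fits. TMM and DESeq2 scaling moved the median gene by at most 0.0063 and 0.0175 (log2). No paired analysis was possible because there is only 1 group.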
